A study of Mus musculus with 8 samples.

Results

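Peg13, Trappc9, Igf2r, Impact, Zrsr1, Snrpn, Peg3, Grb10, H19 and Meg3 are mouse genes known for parent-of-origin expression, and their levels were examined in CD4+ T cells before and after stimulation, in offspring with and without prenatal cadmium (Cd) exposure. They were taken by symbol from the deposited expression table, where all 10 were listed among 27179 genes. They are genes that are imprinted or host an imprinted gene, named with earlier results of these data known. The cells were splenic CD4+ T cells of 8-week-old mice of strain C.Cg-Foxp3tm2Tch/J, which carry a reporter at Foxp3, and every group shared that strain. Cd offspring came from parents given 10 ppm cadmium chloride in drinking water during mating and pregnancy, with plain water from shortly after birth, and control offspring from parents given plain water throughout. Cells were taken unstimulated (0 h) or after 16 h with beads carrying anti-CD3 and anti-CD28, which engage the T cell receptor and its co-receptor. The samples hold no culture of 16 h without beads. Stimulation below thus means beads and 16 h of culture together, and their effects cannot be told apart. There were 4 groups of 2 libraries, numbered 6 and 7 in each group, and no source used here says that a number marks the same animal. If the libraries of a group were not from separate animals, the p-values measure only technical spread.

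An imprinted gene is transcribed mainly from the copy inherited from one parent, because DNA methylation set in the egg or the sperm persists at a control region. Many imprinted clusters pair a protein-coding gene with a long noncoding RNA (lncRNA) made from the other parental copy. Peg13 is a paternally expressed lncRNA inside Trappc9, which encodes a subunit of the TRAPP II vesicle-trafficking complex and is expressed mainly from the maternal copy in brain. Zrsr1 is a paternally expressed gene for a splicing factor inside Commd1. The deposited values do not separate the parental copies, so they measure the sum of both and say nothing of imprinting itself.

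Of the 10 genes, 5 were expressed and 5 were at or near 0. Igf2r, Peg13, Zrsr1, Impact and Trappc9 had a mean above 5 RPKM (reads per kilobase of counted length, scaled to library size), and only these 5 passed the filter of a mean of 0.5 RPKM. Peg13 and Zrsr1 were more than 2-fold lower after stimulation in both control and Cd offspring. Trappc9, Impact and Igf2r did not pass that test, and no difference between Cd and control offspring passed for any of the 5.

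The genes were placed on GRCm38.p6, the assembly of mm10, with positions from RefSeq. Transcripts and strands are from GENCODE, another gene annotation, as are exon bases here and below. The study counted reads on RefSeq genes, so the sharing of exon bases is not shown for the exons counted. Peg13 lies at chr15:72805602-72810324 on the minus strand and Trappc9 at chr15:72589620-73061238 on the same strand. Of the 7 annotated transcripts of Trappc9, 3 span Peg13, and all 3 hold it wholly within an intron. None of the 4725 exon bases of Peg13 was shared with an exon of another gene (0 bases). Reads from unspliced Trappc9 RNA over those bases would be counted to Peg13 and cannot be told apart from it. Zrsr1 lies at chr11:22972005-22976496 on the plus strand, inside Commd1 at chr11:22899728-22984539 on the minus strand. Of the Zrsr1 exon bases, 412 of 4492 (9.2%) were shared with Commd1 exons on the other strand. The strand setting of the counting is not given in the sources used here, so reads over those bases are uncertain for both genes. The counted length of Commd1 was 818 bases, against 5936 exon bases in GENCODE, so the counted exons may not hold those bases. Igf2r lies at chr17:12682406-12769706 and Impact at chr18:12954690-12992950, and neither shared an exon base with another gene.

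**Figure D1:**
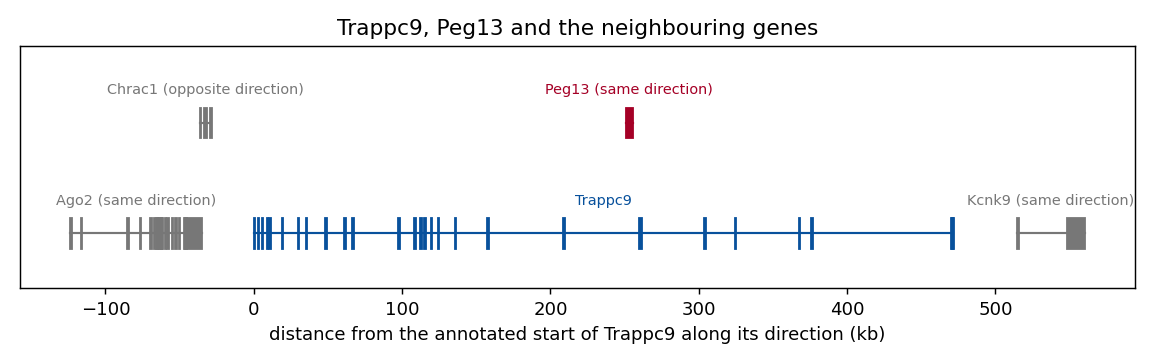
The Trappc9 gene with Peg13 and the neighbouring Kcnk9, Chrac1 and Ago2, drawn to scale along the direction of Trappc9 in kilobases (kb) from its annotated start; boxes are exons, drawn at least 1 kb wide, and lines are gene spans. Peg13 sits between exons of Trappc9 and is read in the same direction.

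Promoters, 250 bases before to 50 after an annotated start, were read from a RefSeq table on GRCm38.p6 for 6 of the 10 genes. CG dinucleotides, the sites of the methylation that imprinting uses, are in capitals. The Zrsr1 promoter is shown as that of a gene that fell with stimulation, the Igf2r promoter as that of an expressed gene that did not pass, and the first Grb10 promoter as that of a gene near 0. They lie at chr11:22971755-22972054 (plus strand), chr17:12769657-12769956 (minus strand) and chr11:12037371-12037670 (minus strand), and are written 5′ to 3′ along the gene.
Zrsr1: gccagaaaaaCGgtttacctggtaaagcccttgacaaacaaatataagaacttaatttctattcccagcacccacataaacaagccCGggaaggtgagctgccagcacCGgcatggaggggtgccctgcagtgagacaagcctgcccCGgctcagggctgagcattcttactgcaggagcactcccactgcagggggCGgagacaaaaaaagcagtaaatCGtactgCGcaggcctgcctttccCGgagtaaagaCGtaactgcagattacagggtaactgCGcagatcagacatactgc
Igf2r: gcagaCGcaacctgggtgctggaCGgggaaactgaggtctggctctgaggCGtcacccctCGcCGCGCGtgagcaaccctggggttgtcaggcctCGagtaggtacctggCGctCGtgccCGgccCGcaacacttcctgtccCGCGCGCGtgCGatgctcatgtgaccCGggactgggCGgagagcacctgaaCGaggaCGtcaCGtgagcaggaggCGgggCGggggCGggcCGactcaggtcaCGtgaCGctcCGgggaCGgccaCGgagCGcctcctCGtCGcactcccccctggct
Grb10: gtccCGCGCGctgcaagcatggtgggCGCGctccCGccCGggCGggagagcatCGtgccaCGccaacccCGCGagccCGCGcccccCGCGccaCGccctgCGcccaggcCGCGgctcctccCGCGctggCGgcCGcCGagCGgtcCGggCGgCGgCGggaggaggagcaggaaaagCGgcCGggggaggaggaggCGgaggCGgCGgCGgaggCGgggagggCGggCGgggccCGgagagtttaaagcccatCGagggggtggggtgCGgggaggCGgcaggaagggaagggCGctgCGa

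The Zrsr1 promoter held 10 CG dinucleotides, more than 56.5% of the 32851 promoters in the table, whose median was 7. That of Igf2r held 34, more than 92.3%, and that of Grb10 held 45, more than 98.1%. Of the 3 shown, the first Grb10 promoter thus held the most CG, but the other promoters of genes near 0 held far fewer. The second Grb10 promoter held 9, and those of Snrpn held 2, 3, 4 and 7. That of Peg3 held 13, and those of Meg3 held 13 and 1. The hexamer TGCCGC, the core that the imprint-maintaining protein ZFP57 binds when it is methylated, was searched on both strands. It was in 3 of the 11 promoters of the 6 genes and in 11.6% of all promoters in the table. It was absent from the Zrsr1 and Igf2r windows and from the second Grb10 promoter, and present in the first Grb10 promoter. These matches describe letters only.

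Depth and purity touched these genes as follows. Libraries held 15542732 to 25486791 reads counted on genes, and the 2 libraries of a group correlated at Pearson r of 0.983 to 0.99 across genes. All 7 T cell markers were above 1 RPKM on average, with a summed level of 2843 to 3023 RPKM in unstimulated and 1946 to 2054 RPKM in stimulated libraries. Of the B cell markers, Ms4a1 was at 0 in all 8 libraries, Pax5 was above 0 in 1 library (0.046 RPKM) and Cd79b was at 0.0429 to 0.387 RPKM. Cd79a was at 2.87 to 3.38 RPKM (62 to 87 reads) unstimulated and 4.15 to 4.73 RPKM (86 to 160 reads) stimulated, with log2 differences of 0.41 in control and 0.57 in Cd offspring (limma adjusted p = 0.0178 and 0.00408), under 2-fold. Of 3 NK cell markers, 2 were lower after stimulation, from a sum of 4.79 to 6.47 RPKM to 0.323 to 0.59 RPKM, and the defining Ncr1 was above 0 in 1 library, at 0.0311 RPKM. The sum over 5 myeloid markers went from 6.24 to 7.87 RPKM down to 3.15 to 4.31 RPKM, with 1 called lower and Lyz2 at 0.0487 RPKM or less. Of 8 stroma and endothelium markers, 4 were at 0 in all libraries, and the sum of 85 to 88.4 RPKM unstimulated and 36.5 to 40.2 RPKM stimulated was nearly all Pecam1, which T cells can also express. Of 6 erythroid markers, 5 were listed, the sum was 0.365 to 1.72 RPKM, and Hba-a1 and Hba-a2 were at 0 in all libraries. The 2 CD8 T cell markers summed to 9.52 to 11.8 RPKM in all 8 libraries, with Cd8a at 0.16 RPKM or less. Of 4 regulatory T cell markers, 2 were called higher with stimulation in each exposure, Il2ra and Ctla4. Ikzf2 was not called, with log2 differences of 0.35 in control and 0.18 in Cd offspring (limma adjusted p = 0.344 and 0.629). The study's legend for the sequenced control cells describes them as CD4+CD25- conventional T cells. Foxp3 itself was at 4.48 to 5.08 RPKM unstimulated and 5.98 to 7.69 RPKM stimulated. Its log2 differences were 0.41 in control and 0.68 in Cd offspring (limma adjusted p = 0.0138 and 0.0011), under 2-fold. The part of these other-cell markers in the results on Peg13 and Zrsr1 was not tested, and in bulk samples fewer cells of a type and less RNA per cell cannot be told apart.

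The first comparison asks how the genes respond to stimulation. Without stimulation, the Peg13 level was 22.8 and 21.4 RPKM (1933 and 1643 reads) in the control libraries and 22.3 and 17.7 RPKM (2043 and 1719 reads) in the Cd libraries. After 16 h of stimulation it was 6.34 and 6.50 RPKM (465 and 597 reads) in the control libraries and 6.84 and 6.91 RPKM (710 and 831 reads) in the Cd libraries. All 4 stimulated libraries lay below all 4 unstimulated ones, and the second unstimulated Cd library was the lowest of its state. The log2 fold change was -1.76 (SE 0.106, limma adjusted p = 5.6e-06) in control and -1.52 (SE 0.106, limma adjusted p = 1.23e-05) in Cd offspring, falls of 3.4-fold and 2.87-fold. Fold changes throughout are on the log2(RPKM + 0.1) scale.

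Zrsr1, related to U2af1 and to the X-linked Zrsr2 that helps recognise the 3′ end of introns, stood at 14.1 and 14.6 RPKM (1140 and 1066 reads) in unstimulated control libraries and at 15.1 and 14.4 RPKM (1321 and 1324 reads) in unstimulated Cd libraries. Stimulated libraries held 5.47 and 5.39 RPKM (382 and 471 reads) without and 5.58 and 5.66 RPKM (551 and 648 reads) with Cd exposure. The libraries of each state lay close together and the states did not overlap. The log2 fold change was -1.38 (SE 0.0678, limma adjusted p = 2.19e-06) in control and also -1.38 (SE 0.0678, limma adjusted p = 2.39e-06) in Cd offspring.

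Trappc9 levels in control libraries were 5.84 and 5.28 RPKM (785 and 644 reads) before and 4.65 and 5.13 RPKM (540 and 746 reads) after stimulation. Those in Cd libraries were 5.22 and 5.09 RPKM (758 and 782 reads) before and 4.67 and 5.17 RPKM (767 and 985 reads) after it. Its states overlapped in Cd offspring and lay close to each other in control offspring. The log2 fold change was -0.18 (95% CI -0.42 to 0.06, limma adjusted p = 0.156) in control and -0.07 (95% CI -0.31 to 0.17, limma adjusted p = 0.577) in Cd offspring. Both intervals exclude a change as large as that of Peg13, which lies in its intron.

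Impact, an inhibitor of the activation of the amino-acid-sensing kinase GCN2, showed 10.7 and 11.2 RPKM (659 and 628 reads) before and 11.4 and 10.6 RPKM (610 and 705 reads) after stimulation in control libraries. The Cd libraries showed 9.39 and 10.9 RPKM (626 and 769 reads) before and 10.3 and 10.5 RPKM (777 and 921 reads) after it. The states overlapped in both. The log2 difference was 0.01 (95% CI -0.20 to 0.21, limma adjusted p = 0.961) in control and 0.04 (95% CI -0.17 to 0.25, limma adjusted p = 0.71) in Cd offspring.

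Igf2r, the receptor that carries mannose 6-phosphate-tagged enzymes to lysosomes and clears the growth factor IGF2, had the highest level of the 5. Its control libraries went from 25.1 and 25.0 RPKM (4025 and 3635 reads) before to 27.3 and 27.4 RPKM (3786 and 4755 reads) after stimulation. Its Cd libraries went from 24.4 and 24.7 RPKM (4223 and 4526 reads) to 27.5 and 26.7 RPKM (5403 and 6080 reads). The states did not overlap, and the difference was small. The log2 fold change was 0.13 (SE 0.0469, limma adjusted p = 0.0452) in control and 0.14 (SE 0.0469, limma adjusted p = 0.0272) in Cd offspring. It did not pass, since the call used here for stimulation needs an adjusted p under 0.01 and a change of more than 2-fold.

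**Figure D2:**
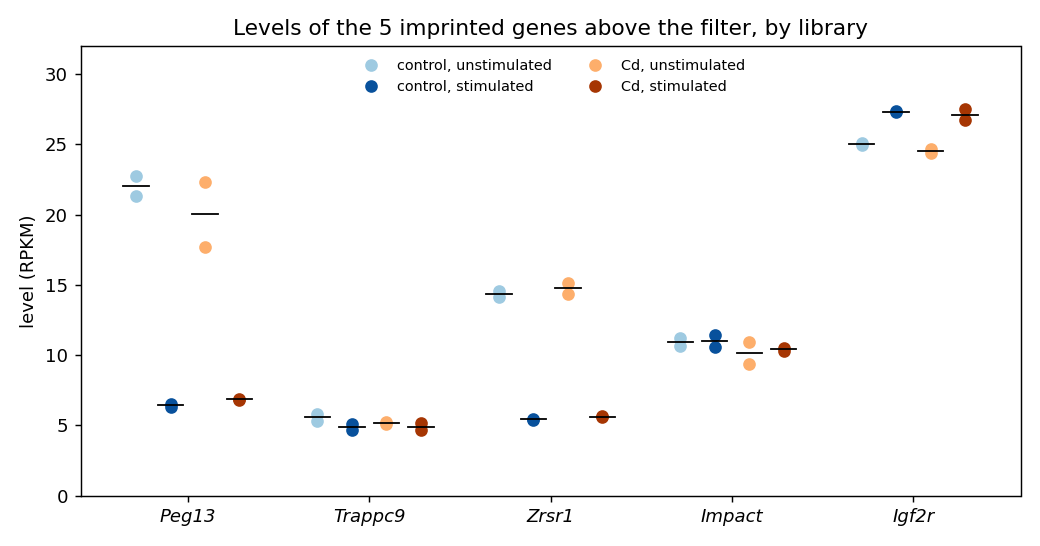
Level in RPKM (linear axis) of the 5 expressed genes in each of the 8 libraries; each point is 1 library, colours are the 4 groups, and the short black line is the mean of the 2 libraries. Peg13 and Zrsr1 are lower in the stimulated libraries of both exposures, while Trappc9, Impact and Igf2r stay close to their unstimulated levels.

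Of the 5 tested genes, 2 were called in control offspring, both lower, where 18.7% of all 12605 genes tested were called and 7.17% were called lower. In Cd offspring the same 2 were called, where 18.6% of all genes were called and 7.24% were called lower. The libraries of the states did not overlap for 4 of the 5 in control and 3 of the 5 in Cd offspring, where 83.1% of all genes did not overlap in each comparison. The median log2 fold change of the 5 was -0.18 in control and -0.07 in Cd offspring, beside 0.07 and 0.05 over all genes tested. With 5 genes these counts describe the genes and no more. The study had already listed Peg13 among lncRNAs lower after stimulation in control offspring, so that call was known when the genes were named.

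The order of levels per length changed with stimulation. In all 4 unstimulated libraries it ran Igf2r, Peg13, Zrsr1, Impact and Trappc9 from highest to lowest. In all 4 stimulated libraries it ran Igf2r, Impact, Peg13, Zrsr1 and Trappc9. Neighbours in the order did not overlap between genes within any group, and no test was made of levels between genes.

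The ratio of each intronic gene to its host was followed within each library. The RPKM ratio of Peg13 to Trappc9 was 3.9 and 4.04 before and 1.36 and 1.27 after stimulation in control libraries, and 4.27 and 3.48 before and 1.47 and 1.34 after it in Cd libraries. Peg13 was thus above its host per length in every library, and closer to it after stimulation. The mean log2 ratio went from 1.95 ± 0.124 (SD, n = 4) to 0.43 ± 0.0854 (SD, n = 4), a difference of -1.52 with p = 0.0286 in an exact two-sided permutation test. That is the smallest p that 4 against 4 libraries allow, and it stayed 0.0286 after Benjamini-Hochberg adjustment over the 2 ratios tested.

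For Zrsr1 and Commd1, the RPKM ratio was 0.811 and 0.844 before and 0.212 and 0.186 after stimulation in control libraries, and 0.936 and 0.976 before and 0.202 and 0.198 after it in Cd libraries. The mean log2 ratio went from -0.17 ± 0.124 (SD, n = 4) to -2.31 ± 0.079 (SD, n = 4), a difference of -2.14 (exact two-sided permutation p = 0.0286, adjusted p = 0.0286). Here both genes moved apart: Commd1, which encodes a copper-handling and NF-κB-regulating protein, was at 14.7 to 17.4 RPKM unstimulated and 25.8 to 29 RPKM stimulated. Its log2 fold change was 0.66 in control and 0.86 in Cd offspring (limma adjusted p = 0.000161 and 3.87e-05), under the 2-fold needed for a call. Within each exposure all stimulated libraries lay below all unstimulated ones in both ratios, but 2 against 2 libraries cannot give an exact p under 0.333. Both ratio tests use the libraries and levels in which Peg13 and Zrsr1 were already lower without overlap. They restate those falls relative to the host and are not separate evidence.

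**Figure D3:**
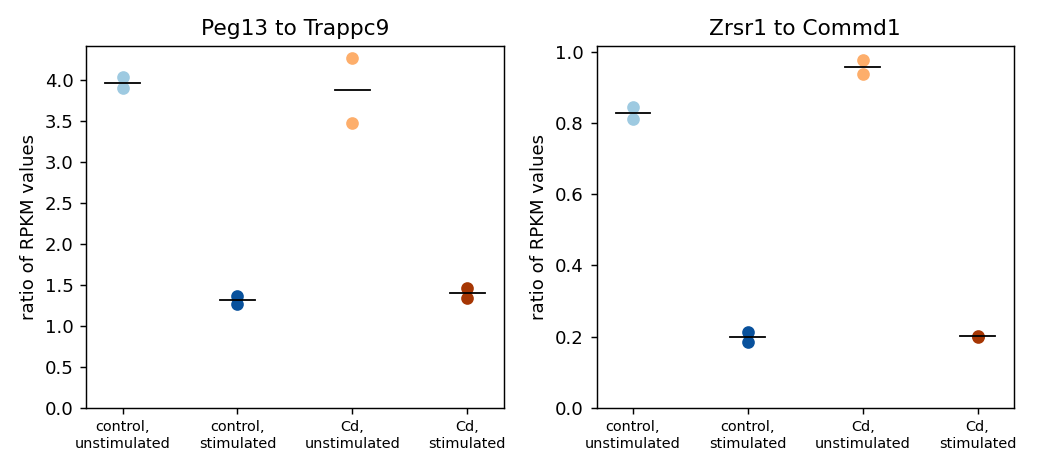
Ratio of RPKM values of Peg13 to Trappc9 (left) and of Zrsr1 to Commd1 (right) in each library, on linear axes from 0; points are libraries and black lines are means of 2. Both ratios are lower in all 4 stimulated libraries than in any unstimulated one.

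The second comparison asks whether prenatal Cd exposure altered these genes. In unstimulated cells none of the 5 was called, where 0.896% of all genes tested were. Peg13 was 22.1 ± 1.0 RPKM (SD, n = 2) in the control group against 20 ± 3.22 RPKM (SD, n = 2) after Cd exposure, with overlapping libraries. The log2 difference, Cd against control, was -0.15 (95% CI -0.40 to 0.10, limma adjusted p = 0.56). Those of Trappc9, Zrsr1, Impact and Igf2r were -0.11 (95% CI -0.35 to 0.14), 0.04 (95% CI -0.12 to 0.20), -0.11 (95% CI -0.32 to 0.10) and -0.03 (95% CI -0.14 to 0.08). No unadjusted p of the 5 was under 0.05 (0 of 5). All 5 intervals include 0, and all lie within 0.40 of it on the log2 scale. The libraries of Trappc9 and of Igf2r did not overlap between exposures, where 42.3% of all genes did not.

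In stimulated cells none of the 5 was called, and none of all genes tested (0%) passed limma's test either. Over all genes the lowest adjusted p was 0.0978, 414 had an unadjusted p under 0.05, and limma voom on the recovered reads called 0 as well. Peg13 was 6.42 ± 0.116 RPKM (SD, n = 2) in the control group against 6.87 ± 0.0471 RPKM (SD, n = 2) after Cd exposure. These libraries did not overlap, but its log2 difference of 0.10 (95% CI -0.15 to 0.35, limma adjusted p = 1) was not called. Zrsr1 differed by 0.05 (95% CI -0.11 to 0.21), Trappc9 by 0.01 (95% CI -0.23 to 0.25), Impact by -0.08 (95% CI -0.29 to 0.13) and Igf2r by -0.01 (95% CI -0.12 to 0.10). Of the 5, 3 did not overlap between exposures, where 36.7% of all genes did not.

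The third comparison asks whether the response to stimulation differed between exposures. None of the 5 was called, where 0.357% of all genes tested were. The largest estimate was that of Peg13, whose log2 fold change was 0.25 higher in Cd than in control offspring (95% CI -0.10 to 0.60, limma adjusted p = 0.578). That of Zrsr1 differed by 0.01 (95% CI -0.22 to 0.23), Trappc9 by 0.11 (95% CI -0.23 to 0.45), Impact by 0.03 (95% CI -0.26 to 0.33) and Igf2r by 0.02 (95% CI -0.14 to 0.17). The Cd and interaction comparisons share libraries with those above and are not separate evidence.

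**Figure D4:**
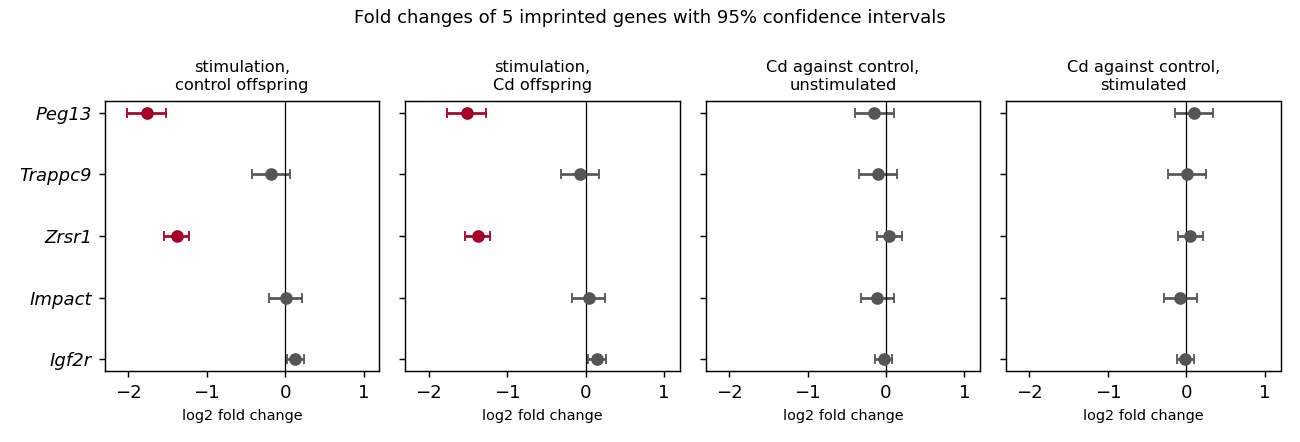
Log2 fold change of the 5 expressed genes (points) with 95% confidence intervals (bars) in 4 comparisons; red marks a call. Peg13 and Zrsr1 are called lower with stimulation in both exposures, and every interval for Cd against control spans 0.

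The 5 remaining genes had next to no reads. Snrpn, which encodes SmN, a core protein of splicing particles best known from brain, was at 0 in all 8 libraries. A count of 0 allows up to 3 reads, or 0.118 to 0.193 CPM, reads scaled to library size, by library. Snurf, which shares its transcript, was at 0 too. In RefSeq Snurf (chr7:59982495-60005199) lies within the span of Snrpn (chr7:59982495-60450177), and all 216 Snurf exon bases in GENCODE were shared with exons of other genes. Of the Snrpn exon bases in GENCODE, 737 of 2159 (34.1%) were shared and the rest were not. How reads in exons of more than 1 gene were counted is not given in the sources used here, so the 0 of Snrpn is uncertain for the shared bases. Such limits cover counting error only.

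Grb10, an adaptor that damps insulin and IGF receptor signalling (chr11:11930499-12037428), had 8 reads in all 8 libraries together and at most 3 in any one. H19, a maternally expressed lncRNA known from embryo and muscle (chr7:142575530-142578146), had 2 reads in all, 1 in each of 2 stimulated libraries. Peg3, a paternally expressed zinc finger gene (chr7:6703892-6730462), was above 0 in 1 library, at 0.00971 RPKM. Meg3, a maternally expressed lncRNA (chr12:109540996-109571729), was above 0 in 1 library, at 0.00431 RPKM. With so few reads no difference between groups was detectable for these 4, and no fold change is given.

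Genes of the same clusters were then examined. Of 31 listed neighbours, 29 were in the table and 8 were tested, and 10 were at 0 in all libraries. With stimulation 1 of the 8 was called in each exposure, Begain of the Dlk1-Meg3 region, with log2 fold changes of 1.45 in control and 1.38 in Cd offspring, beside 18.7% and 18.6% of all genes called. Begain was near the filter before stimulation, at 0.359 to 0.551 RPKM (20 to 29 reads), and at 1.22 to 1.47 RPKM (62 to 98 reads) after it. Its unstimulated group means, 0.441 RPKM in control and 0.455 RPKM in Cd offspring, were under the filter of 0.5 RPKM. Begain thus passed the filter through its stimulated libraries, and its call as higher is not independent of that filter. The median over the 8 was 0.51 in control and 0.33 in Cd offspring. None of the 8 was called in either comparison of Cd with control or in the difference in response.

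Around Trappc9, Kcnk9, a potassium channel gene expressed from the maternal copy in brain, was at 0 in all 8 libraries. Ago2, which encodes the slicing Argonaute of RNA interference, was at 40.5 to 45.2 RPKM unstimulated and 56.7 to 60 RPKM stimulated. Its log2 fold change was 0.52 in control and 0.36 in Cd offspring (limma adjusted p = 4.46e-05 and 0.00032), under 2-fold. Chrac1, a histone-fold subunit of a chromatin remodeller that shares 219 exon bases with Ago2, had log2 differences with stimulation of -0.18 in control and 0.20 in Cd offspring (limma adjusted p = 0.0693 and 0.0444). The difference between those did not pass (0.37, 95% CI 0.13 to 0.62, limma adjusted p = 0.276). Of Peg13, Trappc9, Ago2 and Chrac1, Peg13 alone was called with stimulation.

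Airn, the paternally expressed lncRNA that runs antisense over the Igf2r promoter, was expressed in these cells. Control libraries held 3.15 and 3.53 RPKM of it before and 5.0 and 5.95 RPKM after stimulation, and Cd libraries 4.73 and 4.21 RPKM before and 5.74 and 5.70 RPKM after. The states did not overlap in either exposure. The log2 fold change was 0.69 (limma adjusted p = 0.00155) in control and 0.35 (limma adjusted p = 0.0343) in Cd offspring, and neither reached 2-fold. Airn was at 0.126 to 0.217 times the RPKM of Igf2r, and 114 of its 3597 exon bases lay within the span of Igf2r and 0 in its exons.

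Partners of the expressed genes were described by list, beside 18.7% of all genes called with stimulation in control and 18.6% in Cd offspring. Of 14 other TRAPP subunits, 13 were tested and 0 were called with stimulation in either exposure, with medians of -0.17 in control and -0.11 in Cd offspring. With no requirement on fold, 3 of the 13 in control and 5 in Cd offspring had a limma adjusted p under 0.01, beside 51.7% and 52.5% of all genes tested. Of 4 factors that recognise the 3′ splice site 0 were called, and Zrsr2 had log2 differences of -0.09 in both exposures (limma adjusted p = 0.221 and 0.242). By less than 2-fold, U2af1 was lower after stimulation in Cd offspring (-0.38, limma adjusted p = 0.00586) and U2af2 higher (0.23, limma adjusted p = 0.00766). In control offspring their differences with stimulation were -0.16 (limma adjusted p = 0.151) and 0.20 (limma adjusted p = 0.0132). The difference in response between exposures did not pass for U2af1 (-0.23, limma adjusted p = 0.549) or U2af2 (0.03, limma adjusted p = 0.92). The RPKM ratio of Zrsr1 to Zrsr2 was 1.25 to 1.41 in unstimulated and 0.513 to 0.559 in stimulated libraries. Of the GCN2 activation list, 2 genes were in the table, Gcn1l1 and Eif2ak4, which encodes GCN2 itself. Neither was called, but both were higher after stimulation, by less than 2-fold. Log2 fold changes in control and Cd offspring were 0.76 and 0.87 for Eif2ak4 and 0.52 and 0.43 for Gcn1l1. Both had a limma adjusted p under 0.01 in each exposure, beside 51.7% and 52.5% of all genes tested. The median log2 fold change of the 2 was 0.64 in control and 0.65 in Cd offspring.

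The 7 Sm core protein genes, whose products SmN resembles, were all above 0 in every library. With stimulation 2 were called higher in control offspring, Snrpd1 (1.73) and Snrpd2 (1.48), and 3 in Cd offspring, Snrpd1 (1.75), Snrpd2 (1.69) and Snrpf (1.12), all as log2 fold changes, beside 11.5% and 11.4% of all genes called higher. In control offspring Snrpf was higher by 0.92 (limma adjusted p = 5.05e-05), just under the 2-fold needed. Its difference in response between exposures, 0.20, did not pass (limma adjusted p = 0.572). Snrpb, the ubiquitous relative of Snrpn, was at 94.9 to 111 RPKM unstimulated and 179 to 190 RPKM stimulated (log2 fold change 0.78 and 0.85, limma adjusted p = 6.04e-05 and 4.18e-05). Of 4 tested genes of the insulin and IGF receptor list, 1 was called higher, Igf1r (2.23 in control and 2.14 in Cd offspring). Irs2 alone was called lower (-1.66 and -1.75), where 7.17% and 7.24% of all genes were called lower.

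Of 38 other imprinted genes, 22 were tested and 4 were at 0 in all libraries. With stimulation 5 were called higher and 2 lower in control offspring, and 4 higher and 2 lower in Cd offspring. Over all genes tested, 11.5% were called higher and 7.17% lower in control, and 11.4% higher and 7.24% lower in Cd offspring. In control offspring the largest changes were those of Plagl1, a zinc finger gene (3.59), Nespas, an antisense lncRNA of the Gnas cluster (2.04), Phactr2 (1.69), Nnat (1.64) and the tetraspanin gene Cd81 (1.40), as log2 fold changes. In Cd offspring they were those of Plagl1 (3.56), Nnat (1.69), Nap1l5 (-1.58), Cd81 (1.56) and the AMP deaminase gene Ampd3 (-1.45). Plagl1 had only 3 to 10 reads in each unstimulated library (0.0294 to 0.0951 RPKM), under the 0.1 RPKM added before taking logs. Its fold changes therefore depend on that constant. Plagl1 and Nespas were under 0.5 RPKM in every unstimulated library and passed the filter through the stimulated ones. Nespas rested on 5 to 47 reads, and since it is antisense to other transcripts its reads are uncertain without a stated strand setting. None of the 22 was called between Cd and control offspring in either state or in the difference in response. The median log2 fold change with stimulation was 0.30 in control and 0.24 in Cd offspring.

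**Figure D5:**
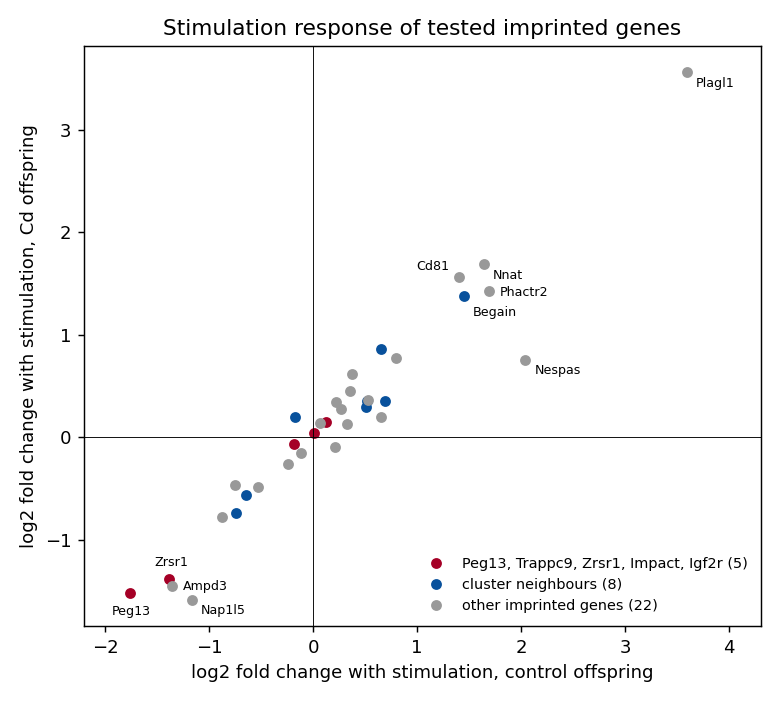
Log2 fold change with stimulation in control offspring (x axis) and in Cd offspring (y axis) for 35 tested imprinted genes and neighbours; each point is a gene, coloured by list, and names mark genes called in at least 1 exposure. Peg13 and Zrsr1 lie at the lower left with Ampd3 and Nap1l5. Plagl1 lies farthest to the upper right, and Nespas has a lower value in Cd than in control offspring. Unstimulated libraries held 3 to 10 reads of Plagl1 and 5 to 22 of Nespas.

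Among 8681 genes with a mean of at least 5 RPKM, the 3 whose log2 levels over the 8 libraries were most like those of Peg13 were Junb (Pearson r = 0.9999), Tmc6 (0.9995) and Frat2 (0.9992). Junb, an AP-1 transcription factor gene, was at 667 to 1012 RPKM unstimulated and 115.8 to 131 RPKM stimulated. As with Peg13, its lowest unstimulated level was in the second Cd library. The 3 most like Trappc9 were Klhl22 (0.965), Taz (0.962) and Susd3 (0.961). These correlations describe 8 libraries in 2 states that share the stimulation step.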

How the data were processed

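Libraries were made from poly(A) RNA of sorted splenic CD4+ T cells. Per the study's methods, the authors used Subread for alignment (mm10), featureCounts for counting on RefSeq genes and then computed RPKM. The deposited values are log2(RPKM + 1) with an offset of 0.0001 added, on a log2 scale, and were turned back to RPKM here. For all 17794 genes above 0 in at least 2 libraries, whole reads were recovered from the values. The gene lists, like the 10 genes, were chosen with earlier results of these data known.

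Genes with a mean of at least 0.5 RPKM (12605) were fitted with limma 3.58.1 (R 4.3.3), with an intensity trend, on log2(RPKM + 0.1) with 4 group means, and adjusted by Benjamini-Hochberg. Stimulation was called at an adjusted p under 0.01 and over 2-fold, and Cd comparisons at an adjusted p under 0.05. Ratios were compared by an exact permutation test over 70 assignments (scipy 1.17.1). The fit and the recovery of reads were tested on simulated data.

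The 10 genes were named in every comparison, with at most 5 called genes per list and comparison, 7 neighbours or paralogues, and 3 genes most like Peg13 and 3 most like Trappc9. Symbols of 25275 genes matched RefSeq. Alternatives were another pseudocount, filters, scaling, no trend, limma voom on recovered reads, blocks on the library number, and leaving out each library. Libraries with the same number did not deviate together. A summed level of B cell markers is not reported here.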

Additional observations from a re-analysis of the deposited data

How the results depend on the processing

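Peg13 and Zrsr1 were called lower with stimulation under every alternative run, and no other of the 5 genes was called in any comparison. Peg13 ranged from -1.84 to -1.64 (log2) in control and from -1.68 to -1.35 in Cd offspring, and Zrsr1 from -1.46 to -1.25 and from -1.42 to -1.25. With median-of-ratios scaling the uncalled stimulation difference of Impact became -0.0699 in control and -0.00618 in Cd offspring, and that of Igf2r for Cd against control in stimulated cells 0.000836.

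Leaving out 1 library turned the sign of other uncalled differences. The ranges were -0.0513 to 0.0623 for Impact with stimulation in control, and -0.0667 to 0.147 for Impact and -0.141 to 0.00353 for Trappc9 in Cd offspring. For Cd against control they were -0.313 to 0.0153 for Peg13 in unstimulated cells, and -0.0642 to 0.0807 for Trappc9 and -0.0326 to 0.00996 for Igf2r in stimulated cells. For the difference in response they were -0.0722 to 0.142 for Impact, -0.0305 to 0.0465 for Zrsr1 and -0.00344 to 0.0391 for Igf2r. Peg13 turned to 0.0153 without the second unstimulated Cd library.

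Counts over all genes moved more, and the cause was not tested. For Cd against control in unstimulated cells, 113 calls became 65 with no filter, 52 with only the libraries compared, 14 with no trend, 211 with voom and 19 to 105 without 1 library (19 and 67 without control unstimulated libraries 6 and 7). In stimulated cells 0 calls became 9 with no filter, 2 with no trend and 0 to 3 without 1 library (3 without control stimulated library 7). For the difference in response, 45 became 28, 4 and 111 with no filter, no trend and voom, and 2 to 63 without 1 library (27 without control unstimulated library 6, 3 and 28 without control stimulated libraries 6 and 7, and 2 without Cd stimulated library 7).

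Same-numbered libraries did not pair (correlations of their deviations between 0.0635 and -0.112). A replicate block on the number gave 2325 and 2313 stimulation calls in control and Cd offspring, 76 and 0 Cd calls and 36 for the difference in response, and a replicate block on exposure and number 2326, 2318 and 25, with the calls for the 5 genes unchanged. With a replicate block by sign permutation of 4 pairs, the ratio differences were -1.52 for Peg13 to Trappc9 and -2.14 for Zrsr1 to Commd1, each with the smallest exact p possible, 0.125. Without 1 library they were -1.57 to -1.47 and -2.18 to -2.09, where the exact p cannot go under 0.0571. A ratio of Snrpn to Snrpb had been planned and was not computed, since Snrpn was at 0 in every library.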

Other observations

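Of 10 listed factors that set or keep imprints, 8 passed the filter. Zfp57, whose motif was searched above, had 0 to 3 reads a library (at most 0.0365 RPKM), and Dppa3 was at 0 in all 8 libraries. With stimulation 1 of the 8 was called in each exposure, where 18.7% of all genes in control and 18.6% in Cd offspring were. That was Uhrf1, which guides DNA methylation to newly copied DNA. It went from 1.02 and 1.34 RPKM to 16.7 and 14.1 RPKM in control offspring, and from 1.16 and 1.0 RPKM to 13.5 and 15.4 RPKM in Cd offspring. The log2 fold changes were 3.6 (limma adjusted p = 1.49e-06) and 3.63 (limma adjusted p = 1.53e-06). None of the 8 was called between Cd and control offspring in either state.

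Of the lists described, 1 gene was called between exposures. Snrpg, an Sm core protein gene, was at 44.8 and 43.1 RPKM in unstimulated cells of control and at 30.3 and 34.8 RPKM in those of Cd offspring, a log2 difference of -0.44 (limma adjusted p = 0.0492). It ranked last by p of the 113 genes called (0.896% of those tested), and it was not followed under the other settings, most of which call fewer genes. In stimulated cells the difference was 0.07 (limma adjusted p = 1), and the difference in response of 0.51 did not pass (limma adjusted p = 0.147).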
